A study of Mus musculus with 9 samples.

Results

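The genes described here encode the voltage-gated calcium channels, the voltage-gated sodium channels and the hyperpolarization-activated HCN channels, measured by RNA sequencing in mouse medial prefrontal cortex. Members were all genes of the deposited count table whose mouse symbol begins with Cacna, Cacnb or Cacng, or with Scn or Hcn and a digit, and that had a count above 0 in some library. The rule gave 44 genes of the 19250 features above 0. They comprised 10 calcium channel pore genes, 4 alpha2delta, 4 beta and 8 gamma genes, 10 sodium channel pore and 4 sodium channel beta genes, and 4 HCN genes.

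All 9 libraries came from DBA2/J mice, an inbred strain, with 3 libraries per group. SA:ANH-KDM5Ci mice underwent social defeat, in which a mouse is exposed repeatedly to an aggressor, over 5 days, belonged to a subtype that the submitters call SA:ANH, and received an inhibitor of KDM5C, a demethylase of histone H3 lysine 4. SA:ANH-vehicle mice had the same defeat and subtype and were given saline according to the treatment labels. NS mice were not stressed and were given saline. The meaning of SA:ANH, the inhibitor's identity, dose and timing, and the animals' age and sex are not given in the sources used here. Whether each library stands for its own mouse is not labelled; a p-value here therefore reflects spread among libraries, part of which may be technical. Library totals were 30525714 to 40700115 counts in SA:ANH-KDM5Ci, 33733470 to 42196472 in SA:ANH-vehicle, and 29845097 to 36033714 in NS. The 44 genes held between 0.523% and 0.573% of a library's counts. The 13 excitatory neuron markers, summed, were at 7371 to 7997 CPM (counts scaled to library size) over the 9 libraries, and the 10 markers of choroid plexus and ependyma at 4.75 to 9.33 CPM. Because whole tissue was sequenced, fewer cells of a type and less RNA per cell cannot be told apart.

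Voltage-gated sodium channels start and carry the action potential. One large pore subunit forms the channel, and small beta subunits alter its gating and its placement in the membrane. Voltage-gated calcium channels turn depolarization into calcium entry: presynaptic types trigger transmitter release, L types signal from the soma and dendrites, and low-threshold T types support burst firing. Their alpha2delta and beta subunits bring the pore to the surface, whereas most brain members of the gamma family are TARPs, auxiliary subunits of AMPA-type glutamate receptors. HCN channels open on hyperpolarization, bind cyclic AMP, and shape how dendrites of cortical pyramidal cells integrate input.

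Levels are compared between genes as CPM per kilobase of annotated exon, so their order depends on the exon length taken for each gene. Among the sodium channel pore genes, Scn2a (chromosome 2, 65620764 to 65767447, GRCm38), the channel of excitatory axons, was highest, at 60.1 ± 4.86 CPM per kilobase over all libraries (SD, n = 9). Scn8a (chromosome 15, 100869863 to 101045938), the main channel of the mature axon initial segment, followed at 43.0 ± 2.24, and Scn1a (chromosome 2, 66270781 to 66440837), needed for firing of inhibitory interneurons, at 30.1 ± 2.80 CPM per kilobase. These genes held 93.0% to 94.7% of the summed pore level in each library. Scn3a, which dominates before birth, was at 6.98 ± 0.758 CPM per kilobase. It lies beside Scn2a, Scn1a, Scn9a and Scn7a in 1 cluster on chromosome 2, whose last members were at 0.584 and 1.13 CPM per kilobase. The sensory neuron channels Scn10a and Scn11a and the muscle channel Scn4a had 0 to 6, 0 to 4 and 0 to 2 counts per library and did not pass the filter on low counts.

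The ratio of Scn8a to Scn2a needs no scaling between libraries. Scn8a was at 75.2%, 69.9% and 79.5% of the Scn2a level per kilobase in SA:ANH-KDM5Ci libraries, at 76.8%, 67.3% and 68.2% in SA:ANH-vehicle libraries, and at 75.3%, 69.3% and 64.8% in NS libraries. The 3 groups overlapped.

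In the windows shown here, CG number around an annotated start differs strongly between these sodium channel genes, although their levels are of the same order. The windows below, from RefSeq (GRCm38.p6), run from 250 bases before to 50 bases after a start, on the gene's strand. Capitals mark each CG and any TATAAA. They are shown for the 3 abundant pore genes and for Scn4b, whose log2 level varied most within groups among the abundant members. Where a gene has several windows, the one with the most CG is given: Scn2a at chr2:65668436-65668735 (plus strand), Scn8a at chr15:100870395-100870694 (plus), Scn1a at chr2:66440788-66441087 (minus) and Scn4b at chr9:45138374-45138673 (plus).
Scn2a: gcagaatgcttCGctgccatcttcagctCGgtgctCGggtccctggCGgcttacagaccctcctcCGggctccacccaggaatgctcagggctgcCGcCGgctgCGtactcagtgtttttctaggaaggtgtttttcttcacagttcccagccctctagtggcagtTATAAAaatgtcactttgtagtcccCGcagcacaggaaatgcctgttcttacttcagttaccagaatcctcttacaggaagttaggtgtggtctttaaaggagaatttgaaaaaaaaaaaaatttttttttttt
Scn8a: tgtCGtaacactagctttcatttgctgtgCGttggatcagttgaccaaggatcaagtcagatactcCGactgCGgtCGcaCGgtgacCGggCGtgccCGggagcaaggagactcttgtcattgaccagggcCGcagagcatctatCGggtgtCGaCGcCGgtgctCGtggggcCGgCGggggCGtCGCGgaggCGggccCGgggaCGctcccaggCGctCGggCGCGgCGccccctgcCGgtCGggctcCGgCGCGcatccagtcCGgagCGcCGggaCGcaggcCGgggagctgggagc
Scn1a: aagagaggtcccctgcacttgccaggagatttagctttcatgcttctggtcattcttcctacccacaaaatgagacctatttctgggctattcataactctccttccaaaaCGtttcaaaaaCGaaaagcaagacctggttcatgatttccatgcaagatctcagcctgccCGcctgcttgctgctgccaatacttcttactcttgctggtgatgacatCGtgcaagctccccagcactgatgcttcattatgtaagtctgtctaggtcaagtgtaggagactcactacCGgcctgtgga
Scn4b: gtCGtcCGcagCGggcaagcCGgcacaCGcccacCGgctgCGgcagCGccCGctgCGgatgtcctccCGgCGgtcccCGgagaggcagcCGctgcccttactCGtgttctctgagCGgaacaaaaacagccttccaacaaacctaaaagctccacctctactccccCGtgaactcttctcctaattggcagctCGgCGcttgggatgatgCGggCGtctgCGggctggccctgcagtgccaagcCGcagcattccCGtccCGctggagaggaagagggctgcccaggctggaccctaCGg
Scn8a had 38 CG in the window shown, Scn4b 26, Scn2a 9 and Scn1a 5. A second window had 12 CG in Scn8a and 3 in Scn2a, so the contrast depends on the window taken. The second Scn2a window, at chr2:65620519-65620818, spans the gene start given above, whereas the one shown lies inside the gene. The Scn2a window shown holds 1 TATAAA, at base 167 of the window.

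Windows were found for 32 of the 44 genes, 43 windows in all, with a median of 11 CG, against 7 over all 32851 RefSeq windows. The richest window of a gene had from 2 CG in Scn2b and Cacng8 to 63 in Cacna1d. CG number in the richest window and level per kilobase had a Spearman rho of 0.21 across the 32 genes, a description in which genes are not independent replicates. On either strand, TATAAA was in 2 of the 43 windows (4.65%, in Cacna1d and Scn2a), against 13.6% of all windows, and GGGCGG, the core bound by Sp1-type factors, was in 18 of 43 (41.9%), against 35.7% of all windows. The cyclic AMP response motif TGACGTCA was in 0 of 43 channel gene windows and in 1.79% of all windows. That says only that these letters are not in these windows.

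Among the sodium channel beta genes, Scn2b was at 73.5 ± 1.40 CPM per kilobase (SD, n = 9) and Scn3b at 30.5 ± 3.17. Scn4b, which enables resurgent current and lies beside Scn2b on chromosome 9 (45138624 to 45154155), was the lowest at 25.5 ± 7.16, a difference from Scn3b within the spread of Scn4b.

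In the HCN family, Hcn2 (chromosome 10, 79716634 to 79736108), the cyclic AMP-sensitive form that is broadly expressed in brain, was at 53.9 ± 4.42 CPM per kilobase. Hcn3 was at 4.61 ± 0.572 CPM per kilobase and Hcn4, the pacemaker form of the heart and thalamus, at 0.590 ± 0.140 CPM per kilobase. Hcn2 held 81.1% ± 1.55, 80.0% ± 1.56 and 79.9% ± 1.96 of the summed HCN level in SA:ANH-KDM5Ci, SA:ANH-vehicle and NS (SD, n = 3 each).

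Among calcium channel pores, Cacna1a (chromosome 8, 84338631 to 84640251), which encodes the P/Q type of presynaptic terminals, was highest at 26.5 ± 1.72 CPM per kilobase. The T-type genes Cacna1i and Cacna1g came next at 16.9 ± 0.931 and 16 ± 0.606. Cacna1i was the higher in most libraries but the lower in SA:ANH-vehicle replicate 2 and NS replicate 3. Cacna1e, the R type, was at 13.3 ± 1.67 and Cacna1b, the N type, at 12.3 ± 1.47. These ranges overlap across libraries, but within every library Cacna1e was the higher. The L-type genes Cacna1d and Cacna1c were at 7.38 ± 0.508 and 3.67 ± 0.392, and Cacna1h, the remaining T type, at 7.02 ± 0.541. Cacna1s, the skeletal muscle L type, was at 0.598 CPM per kilobase, while Cacna1f, the retinal L type, had 2 to 10 counts per library and did not pass the filter. By family, the P/Q, N and R genes held 49.4% ± 1.26 of the pore level in SA:ANH-KDM5Ci, 49.9% ± 0.696 in SA:ANH-vehicle and 51.3% ± 0.676 in NS. The T types held 39.6% ± 1.58, 38.8% ± 0.404 and 37.2% ± 0.845 in the same order, and the L types 11% ± 0.515, 11.3% ± 0.338 and 11.4% ± 0.439.

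Of the alpha2delta genes, whose first members are the targets of gabapentin, Cacna2d1 was at 44.6 ± 3.84 CPM per kilobase, Cacna2d3 at 25.7 ± 1.65, Cacna2d2 at 6.59 ± 0.533 and Cacna2d4, known from retina, at 0.335 ± 0.0421. Among the beta genes Cacnb3 led at 97.0 ± 3.52, followed by Cacnb4 at 46.3 ± 2.86, Cacnb1 at 25.1 ± 1.14 and Cacnb2 at 8.89 ± 0.456. In the gamma family the TARP genes Cacng3, Cacng8, Cacng7 and Cacng2 were at 40.2 ± 2.40, 28.8 ± 2.19, 26.6 ± 1.47 and 17.2 ± 1.61 CPM per kilobase. Cacng8 was above Cacng7 in most libraries but below it in replicate 1 of SA:ANH-KDM5Ci and of SA:ANH-vehicle. Cacng4 and Cacng5 were at 2.15 and 2.07, Cacng6 at 0.508, and Cacng1, the skeletal muscle subunit, had 1 to 7 counts per library and did not pass the filter.

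**Figure D1:**
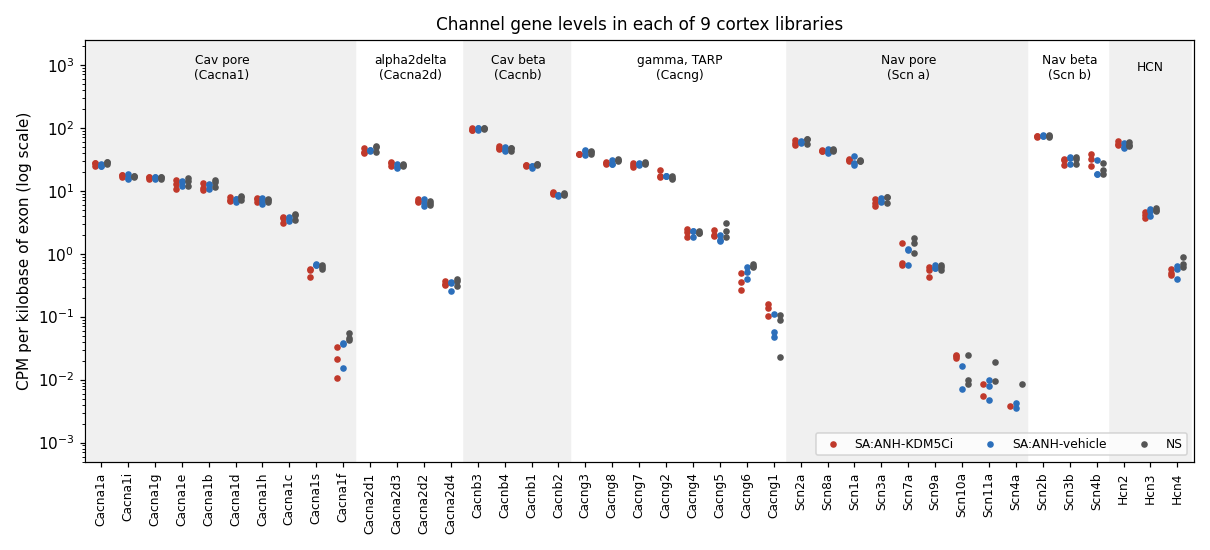
Level of 41 of the 44 channel genes in CPM per kilobase of exon (log axis), with 1 point per library and the 3 groups side by side from left to right as SA:ANH-KDM5Ci, SA:ANH-vehicle and NS; libraries at 0 are not drawn. Genes run from high to low within each class, with Cacnb3 at 97.0 the highest drawn, down to the 5 genes that did not pass the filter, and the groups lie on top of each other for most genes.

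After the filter 39 of the 44 genes were tested, all in 1 fit of 15144 genes with edgeR's quasi-likelihood test and Benjamini-Hochberg adjustment. A gene was called at an adjusted p under 0.05. The 3 comparisons share groups, so their values are not independent of each other.

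SA:ANH-vehicle against NS compares defeated mice of the subtype with non-stressed mice, so that stress and subtype cannot be told apart. No channel gene was called: 0 of 39 passed, in a comparison where 0.0132% of all tested genes did. At an unadjusted p under 0.05 there were 5 of 39 genes (12.8%), against 8.21% of all genes. All 5 had a lower mean in SA:ANH-vehicle, but the split by direction over all genes was not counted. DESeq2 and limma-voom also called 0. Groups did not overlap for 2 of the 39 genes (5.13%), against 15.1% of all genes.

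Cacng5, an atypical TARP, had the lowest p of the 39. It was at 6.37, 7.59 and 6.06 CPM in SA:ANH-vehicle libraries, against 8.68, 7.13 and 11.7 CPM in NS libraries, giving -0.45 in log2 (SE 0.16, adjusted p = 0.478 by edgeR). The groups overlapped, and without NS replicate 3, the highest library of all, the value was -0.24. Hcn4 was at 2.39, 3.95 and 3.50 CPM in SA:ANH-vehicle and 3.76, 4.13 and 5.35 CPM in NS, or log2 -0.43 (SE 0.19, adjusted p = 0.581 by edgeR). Here too the groups overlapped, and leaving out SA:ANH-vehicle replicate 1 gave -0.24, while leaving out NS replicate 3 gave -0.27. Among abundant genes, Cacna1a was at 213, 197 and 192 CPM in SA:ANH-vehicle and at 228, 225 and 210 CPM in NS, or log2 -0.14 (SE 0.06, adjusted p = 0.575 by edgeR), with 1 SA:ANH-vehicle library above 1 NS library. Cacnb1, a beta subunit of muscle and neurons, was at 90.9, 99.99 and 99.7 CPM in SA:ANH-vehicle, below all NS libraries at 107, 105 and 104 CPM (log2 -0.12, SE 0.05, adjusted p = 0.535 by edgeR). Cacng8, the TARP most typical of hippocampus, averaged 53.0 ± 4.38 CPM in SA:ANH-vehicle and 58.8 ± 1.87 CPM in NS (SD, n = 3 each; log2 -0.15, adjusted p = 0.546 by edgeR).

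Fold changes were small and mostly negative: 31 of the 39 genes had a log2 fold change below 0, with a median of -0.07, beside 48.4% of all tested genes and a median of 0.00. The number was 31 or 32 with other scalings and tools and was 26 without NS replicate 2 or without SA:ANH-vehicle replicate 3. All 7 sodium channel pore genes, all 4 HCN genes and all 4 beta genes were on the negative side, whereas the 4 sodium channel beta genes lay between 0.01 and 0.03. For 33 of the 39 genes the 95% interval of the log2 fold change stayed within 0.5 on either side of 0, which is a 1.41-fold difference. The wider intervals belonged to Cacng5, Cacng6, Hcn4, Scn7a, Cacna2d4 and Scn4b.

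The inhibitor is tested within defeated mice by SA:ANH-KDM5Ci against SA:ANH-vehicle. Again 0 of 39 channel genes were called by edgeR, while 2.51% of all tested genes were, and DESeq2 and limma-voom called 0. At an unadjusted p under 0.05 there were 4 of 39 genes (10.3%), against 14.2% of all genes, with 2 higher and 2 lower in SA:ANH-KDM5Ci. Groups did not overlap for 5 of the 39 genes (12.8%), against 18.9% of all genes.

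Cacna1s had the lowest p. It was at 2.72, 3.62 and 3.49 CPM in SA:ANH-KDM5Ci libraries, below all SA:ANH-vehicle libraries at 4.29, 4.17 and 4.38 CPM, giving -0.38 in log2 (SE 0.13, adjusted p = 0.165 by edgeR). This gene is known as a channel of muscle. Markers of other cell types also differed: the 10 markers of meninges and fibroblasts, all above 0, summed to 84.7 to 94.0 CPM in SA:ANH-KDM5Ci and 123 to 197 CPM in SA:ANH-vehicle, and the 10 endothelial markers, all above 0, to 221 to 266 and 275 to 292 CPM in the same order. Of these, 4 and 3 fell in SA:ANH-KDM5Ci. The 9 mural cell markers above 0 (Acta2 was at 0 or unmatched) overlapped, at 155 to 184 and 174 to 208 CPM, and 1 fell. Of the 10 oligodendrocyte precursor markers 3 rose, with sums of 382 to 413 and 333 to 378 CPM. Of the 10 astrocyte markers 1 fell. The part of these lists in the level of Cacna1s was not tested. Cacnb2, the main beta subunit of heart, was at 46.5, 45.0 and 43.0 CPM in SA:ANH-KDM5Ci, above all SA:ANH-vehicle libraries at 40.9, 41.3 and 39.6 CPM, or log2 0.14 (SE 0.05, adjusted p = 0.211 by edgeR). Cacna2d3 averaged 106 ± 6.61 CPM in SA:ANH-KDM5Ci and 96.5 ± 7.25 CPM in SA:ANH-vehicle (SD, n = 3 each; log2 0.13, adjusted p = 0.377 by edgeR, and 0.20 without SA:ANH-vehicle replicate 1).

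The 39 log2 fold changes split into 20 above and 19 below 0, with a median of 0.02 beside 0.00 over all tested genes. For 33 genes the 95% interval stayed within 0.5 of 0. Scn1a was at 254, 266 and 268 CPM in SA:ANH-KDM5Ci and at 304, 231 and 221 CPM in SA:ANH-vehicle, or log2 0.06 (adjusted p = 0.852 by edgeR). Without SA:ANH-vehicle replicate 1, its highest library, it became 0.22 (adjusted p = 0.0467 by edgeR), the 1 case in which leaving out a library made a channel gene pass, and without SA:ANH-vehicle replicate 3 it was -0.03.

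SA:ANH-KDM5Ci against NS compares defeated mice given the inhibitor with non-stressed mice given saline, so that stress, subtype and inhibitor cannot be told apart. Of the 39 channel genes 0 were called by edgeR, against 3.97% of all tested genes, and 0 by DESeq2 or limma-voom. At an unadjusted p under 0.05 there were 7 genes (17.9%), against 18.5% of all genes, with 2 higher and 5 lower in SA:ANH-KDM5Ci. Groups did not overlap for 8 of the 39 genes (20.5%), against 23.5% of all genes. In all 8 SA:ANH-KDM5Ci was the lower group, but the split by direction over all genes was not counted.

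Cacng6, a gamma subunit that is not a TARP, had the lowest p. It was at 0.525, 0.711 and 0.971 CPM in SA:ANH-KDM5Ci libraries and at 1.27, 1.198 and 1.34 CPM in NS libraries, or log2 -0.76 (SE 0.25, adjusted p = 0.124 by edgeR), from 16 to 45 counts per library. Cacng8, its neighbour on chromosome 7, was at 52.2, 53.8 and 49.6 CPM in SA:ANH-KDM5Ci, below all NS libraries at 59.4, 56.8 and 60.4 CPM (log2 -0.18, SE 0.06, adjusted p = 0.129 by edgeR). Hcn3 was at 16.7, 18.4 and 14.8 CPM in SA:ANH-KDM5Ci and at 19.7, 19.3 and 21.6 CPM in NS (log2 -0.28, SE 0.11, adjusted p = 0.168 by edgeR). Neither gene had overlapping groups. Hcn4 averaged 3.14 ± 0.377 CPM in SA:ANH-KDM5Ci and 4.41 ± 0.835 CPM in NS (SD, n = 3 each; log2 -0.49, adjusted p = 0.188 by edgeR). In NS the meningeal and endothelial markers summed to 109 to 171 and 277 to 292 CPM, also above SA:ANH-KDM5Ci. The mural cell markers, at 167 to 186 CPM in NS, overlapped SA:ANH-KDM5Ci. Called lower in SA:ANH-KDM5Ci than in NS were 3 meningeal, 3 endothelial, 1 mural and 1 astrocyte marker. Of the interneuron markers 1 rose and 1 fell, and of the oligodendrocyte precursor markers 1 rose. The part of these lists in channel gene levels was not tested. For 30 of the 39 genes the 95% interval stayed within 0.5 of 0. A log2 fold change below 0 was found in 27 of them all (69.2%), beside 50.1% of all tested genes. The median was -0.08, beside -0.00 over all tested genes. The genes share libraries, so their directions are not independent of each other.

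**Figure D2:**
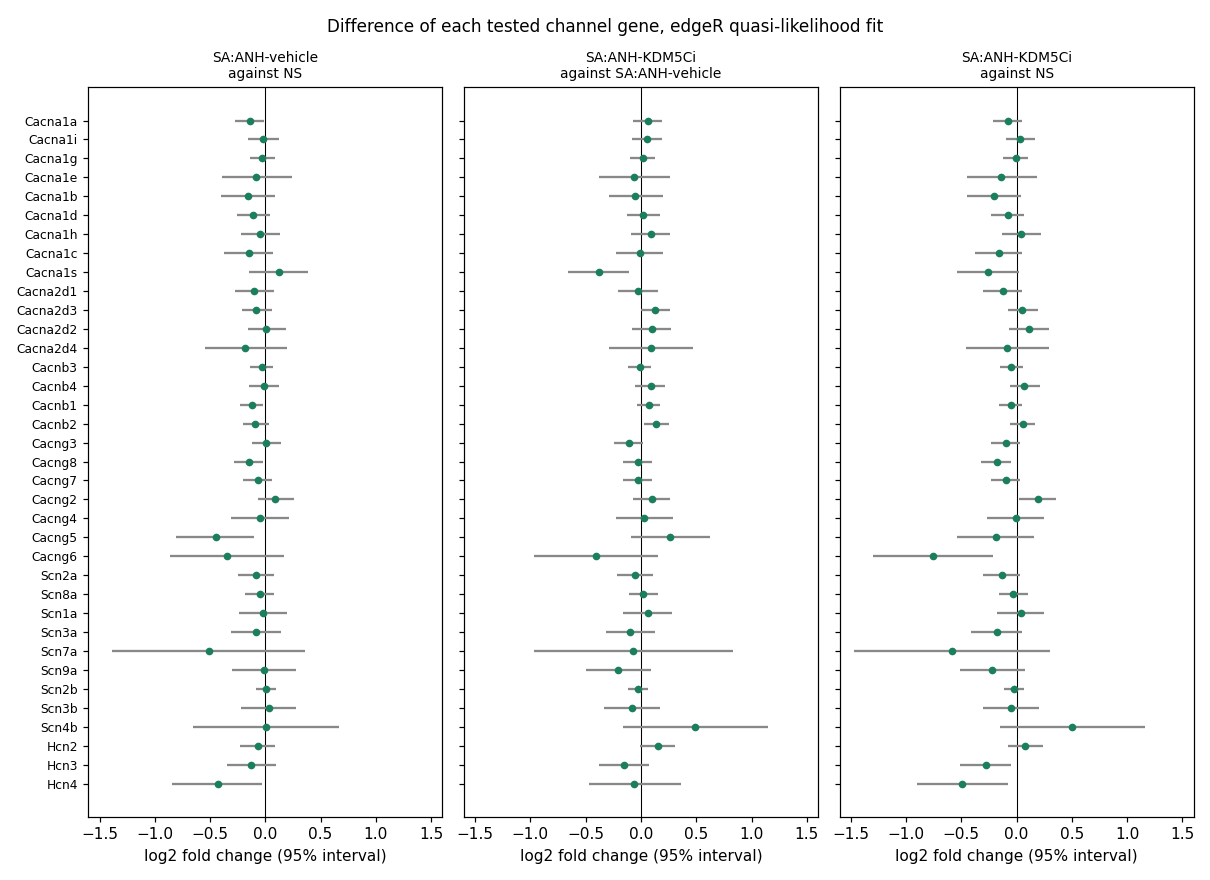
Log2 fold change (points) and 95% interval (bars) of 36 of the 39 tested channel genes in each comparison, as first-named group over second, from 1 edgeR fit of all 9 libraries. No gene passed after adjustment over 15144 genes; the widest intervals belong to Scn7a, Scn4b and Cacng6, and the abundant pore, beta and TARP genes lie close to 0.

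In both comparisons of SA:ANH-KDM5Ci, Scn4b had the largest log2 fold change among the channel genes at or above 20 CPM. It also had the largest within-group SD of log2 CPM among them, at 0.35. It was at 191, 122 and 160 CPM in SA:ANH-KDM5Ci libraries, at 152, 91.6 and 91.7 CPM in SA:ANH-vehicle libraries, and at 136, 107 and 90.1 CPM in NS libraries. The groups overlapped, and replicate 1 was the highest library of each. The log2 fold change was 0.49 (SE 0.28, 95% interval -0.16 to 1.15, adjusted p = 0.514 by edgeR) for SA:ANH-KDM5Ci against SA:ANH-vehicle and 0.50 (SE 0.28, adjusted p = 0.393 by edgeR) for SA:ANH-KDM5Ci against NS. Without SA:ANH-vehicle replicate 1 the first of these was 0.79 (adjusted p = 0.233 by edgeR). The log2 fold change was 0.01 (adjusted p = 0.996 by edgeR) for SA:ANH-vehicle against NS.

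Scn4b is known to be abundant in striatal neurons, and striatal markers moved with it. The 13 striatal markers, all above 0, summed to 753, 320 and 502 CPM in SA:ANH-KDM5Ci, to 346, 283 and 266 CPM in SA:ANH-vehicle and to 400, 269 and 245 CPM in NS. All 13 had a positive log2 fold change in SA:ANH-KDM5Ci against SA:ANH-vehicle, with a median of 0.94, and 0 of them passed. The 10 oligodendrocyte and myelin markers summed to 3669, 2813 and 3338 CPM, then to 3154, 2012 and 2007 CPM, and to 3133, 1997 and 1543 CPM in the same order of groups. In both lists replicate 1 was the highest library of its group, as for Scn4b. Replicate 1 was also the highest of each group for the 12 interneuron markers above 0 (Lamp5 was at 0 or unmatched). These summed to 1437, 1353 and 1427 CPM, then to 1436, 1304 and 1287 CPM, and to 1393, 1334 and 1361 CPM. The interneuron and striatal lists share the gene Tac1, so their sums are not separate observations, and its part in either sum was not tested. The part of any of these lists in the level of Scn4b was not tested.

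**Figure D3:**
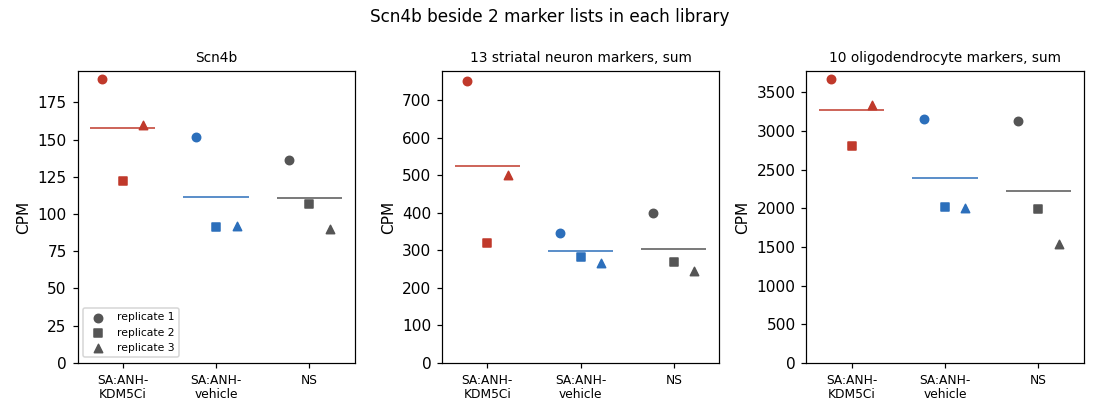
CPM in each library (vertical axes start at 0) of Scn4b, of the sum of 13 striatal neuron markers and of the sum of 10 oligodendrocyte markers, with SA:ANH-KDM5Ci, SA:ANH-vehicle and NS from left to right, marker shapes for replicates and lines at group means. Replicate 1 is the highest point of each group in all 3 panels, with Scn4b at 191, 152 and 136 CPM.

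Variation within groups differed between genes. The median within-group SD of log2 CPM over the 29 channel genes at or above 20 CPM was 0.1, against 0.073 over all 7759 genes at that level. Scn2b was the steadiest of the 39, with an SD of 0.03, and ran from 332 to 352 CPM over all libraries, whereas Scn7a, an atypical channel of glia that senses sodium, had the largest SD, at 0.51. Scn7a was at 5.28, 10.8 and 4.93 CPM in SA:ANH-KDM5Ci, at 4.90, 8.54 and 8.62 CPM in SA:ANH-vehicle and at 7.49, 10.8 and 13.1 CPM in NS.

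Hcn2 and Scn2a, chosen after their values were seen, deviated in opposite directions in some libraries. Hcn2 was at 177, 171 and 197 CPM in SA:ANH-KDM5Ci, at 180, 158 and 153 CPM in SA:ANH-vehicle and at 187, 167 and 162 CPM in NS. Scn2a was at 511, 576 and 479 CPM in SA:ANH-KDM5Ci, at 546, 553 and 525 CPM in SA:ANH-vehicle and at 508, 601 and 610 CPM in NS. SA:ANH-KDM5Ci replicate 3 was thus the highest of the 9 libraries for Hcn2 and the lowest for Scn2a, and within NS replicate 1 was highest for Hcn2 and lowest for Scn2a. Cacna1b, Cacna1e, Cacna1c, Scn3a and Cacna2d1 were likewise lowest of their groups in those libraries. Across the 39 genes, the correlation of a library's deviation from its group mean with log2 exon length was 0.05, 0.38 and -0.47 in SA:ANH-KDM5Ci replicates 1 to 3, 0.22, 0.03 and -0.36 in those of SA:ANH-vehicle, and -0.51, 0.61 and 0.12 in those of NS. Over 14481 tested genes with a length it was 0.06, 0.24 and -0.30, then 0.17, 0.02 and -0.21, and -0.22, 0.19 and 0.07 in the same order. Hcn2 has 3.19 kilobases of exon against 9.08 in Scn2a. In SA:ANH-vehicle it was 0.141 above the group mean in replicate 1 and -0.092 from it in replicate 3 (log2). A correlation across genes does not set the direction of any 1 gene. These are descriptions across genes that share libraries, and their part in the differences between groups was not tested.

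**Figure D4:**
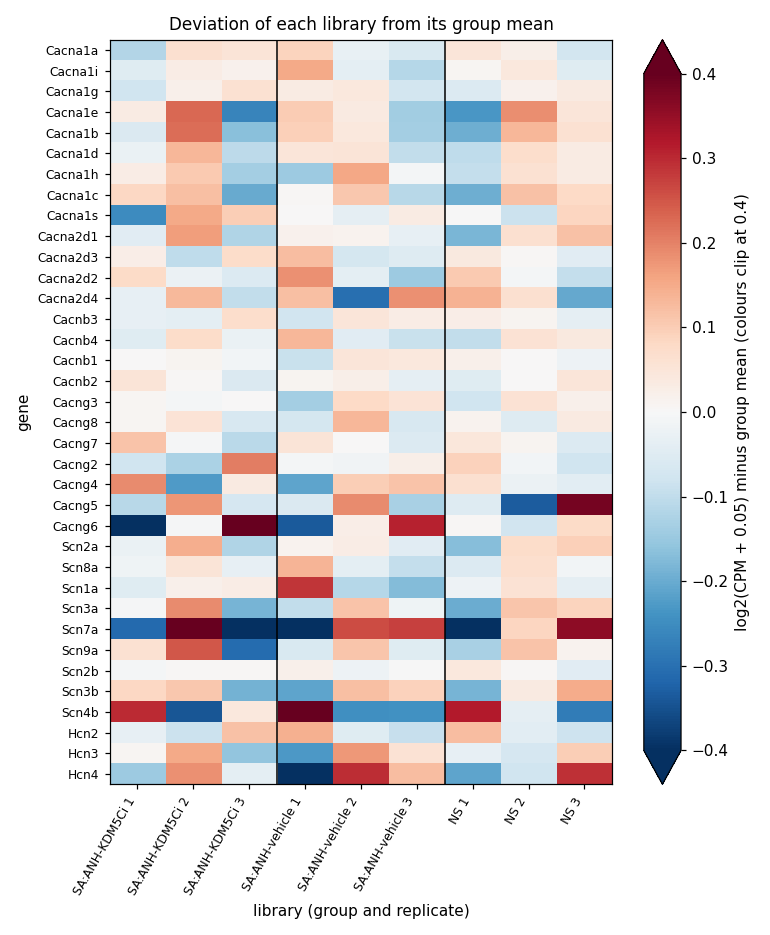
Deviation of each library from its group mean, in log2(CPM + 0.05), for 36 of the 39 tested channel genes (rows, by class) and the 9 libraries (columns, SA:ANH-KDM5Ci, SA:ANH-vehicle and NS from left to right). Scn4b is high in replicate 1 of every group, and in SA:ANH-KDM5Ci replicate 3 and NS replicate 1 Hcn2 is above its group mean while Scn2a, Cacna1b and Cacna1e are below theirs.

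Proteins that bind these channels were taken from 4 lists covering sodium channel, HCN, calcium channel and TARP partners, with 58 genes tested as 59 features because Rims1, a scaffold of the presynaptic active zone, has 2. In SA:ANH-vehicle against NS 0 features were called, with a median log2 fold change of -0.04. In SA:ANH-KDM5Ci against SA:ANH-vehicle 1 of 59 was called (1.69%, against 2.51% of all genes; median 0.03). In SA:ANH-KDM5Ci against NS 1 rose and 1 fell (3.39%, against 3.97%; median -0.01). None of the sodium channel partners (16 tested, among them the ankyrin and fibroblast growth factor homologous factor genes), the HCN partners (7) or the TARP partners (11, among them the AMPA receptor subunits) were called in any comparison by edgeR.

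Gem, a small GTPase that binds calcium channel beta subunits and inhibits the channel, was the partner that rose. It averaged 2.49 ± 0.235 CPM in SA:ANH-KDM5Ci, 1.39 ± 0.199 CPM in SA:ANH-vehicle and 1.32 ± 0.207 CPM in NS (SD, n = 3 each). Its log2 fold change was 0.84 (SE 0.17, adjusted p = 0.0218 by edgeR) against SA:ANH-vehicle and 0.92 (SE 0.18, adjusted p = 0.0111 by edgeR) against NS. The first call was lost on leaving out replicate 2 or 3 of SA:ANH-KDM5Ci (adjusted p = 0.0662 and 0.103) or of SA:ANH-vehicle (0.076 and 0.0851), and the second without NS replicate 2 or 3 (0.0565 and 0.061). Rem1, a GTPase of the same family, fell to 0.235 ± 0.112 CPM in SA:ANH-KDM5Ci, against 0.685 ± 0.0478 CPM in NS (log2 -1.57, SE 0.39, adjusted p = 0.0419 by edgeR). That call was lost with DESeq2 (adjusted p = 0.0522) and without NS replicate 1, 2 or 3 (0.0735, 0.1 and 0.14). It was also lost without replicate 2 or 3 of SA:ANH-KDM5Ci (0.101 and 0.173) and without replicate 2 of SA:ANH-vehicle (0.0632). Rem1 was near the counting floor, as 3 counts are 0.0737 to 0.0983 CPM in SA:ANH-KDM5Ci libraries. The gene was not tested under a filter of at least 1 CPM in 3 libraries.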

How the data were processed

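The authors' deposited table holds expected counts per NCBI gene ID, which need not be whole numbers (15.7% of values above 0 were whole within 1e-06). Per the submitters' processing notes, Trimmomatic 0.32, TopHat2 2.0.13, Bowtie2 2.2.3 and mm10 were used. The counting tool and its strand setting are not given in the sources used here. Whether reads of a gene and of its antisense partner were told apart is therefore not known. By position, without regard to strand, 9 channel genes overlap another gene above 0, among them Cacnb1 with Rpl19 and Hcn3 with Pklr. Libraries were made with a strand-specific kit from total RNA, per the labels' protocols.

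Symbols were looked up in RefSeq genes of GRCm38.p6 (19215 of 19250 features above 0 matched, after removal of a chromosome suffix from 452 IDs) and exon lengths from the union of GENCODE M21 basic exons. Counts were rounded, filtered with filterByExpr (15144 genes left), scaled by TMM and tested with edgeR 4.0.16 in R 4.3.3 (glmQLFit with robust moderation, 1 mean per group over 9 libraries, Benjamini-Hochberg at 0.05). SEs are the fold change divided by the root of F, and intervals use the moderated degrees of freedom. CPM uses TMM-scaled library sizes. A level of 3 counts corresponds to 0.0711 to 0.101 CPM and set the counting floor. The script was tested on simulated counts. DESeq2 1.42.0 and limma 3.58.1 were alternatives.

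The genes named are, per comparison, the 5 channel genes of lowest p, with the highest and lowest tested member of each class, those that did not pass the filter, and called partners. Scn4b, Scn1a, Scn2a, Hcn2, Scn2b and Scn7a were singled out by their values. Values of 3 of the 44 genes are not reported here, although counts, medians and summed levels over genes include them. Members and lists were chosen with earlier results of these data known. Same-numbered libraries are not paired by the labels.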

Additional observations from a re-analysis of the deposited data

How the results depend on the processing

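The count of 0 channel genes called held under every alternative for SA:ANH-vehicle against NS: DESeq2, its size factors in edgeR, limma-voom, other filters, a fit of the compared pair alone, moderation without robustness, a replicate block, an adjusted p of 0.1 and each library left out. For the comparisons of SA:ANH-KDM5Ci with SA:ANH-vehicle and with NS it held under the same alternatives except the block, which gave 1 call in each, and, with SA:ANH-vehicle, 1 library left out (range 0 to 1). The block's call was Scn4b, at 0.52 (adjusted p = 0.0472 by edgeR) and 0.51 (adjusted p = 0.0359 by edgeR). Same-numbered libraries had correlations of deviations from -0.144 to 0.238, and 4 of 9 libraries correlated best with their own number. The labels give only the number, and whether such libraries share a batch or a dissection is not known. The call made without SA:ANH-vehicle replicate 1 was Scn1a, at 0.22, and without SA:ANH-vehicle replicate 3 Scn1a was at -0.03. The cause was not tested.

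Over all genes, SA:ANH-vehicle against NS gave 2 calls, 15 at an adjusted p of 0.1, 81 with DESeq2, 11 without a filter, 17 with only the groups compared and 2 to 17 with 1 library left out. SA:ANH-KDM5Ci against SA:ANH-vehicle gave 380, 593 at 0.1, and 203 to 429 with 1 library left out. SA:ANH-KDM5Ci against NS gave 601, 1017 at 0.1, and 269 to 747 with 1 library left out. Genes near the counting floor (Cacna1f, Cacng1, Scn4a, Scn10a and Scn11a) were too shallow for a comparison in the main test.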
